A study of Mus musculus with 7 samples.

Results

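Chemokine receptors are G protein-coupled receptors that guide T cells between and within tissues along gradients of small secreted chemokines. Each couples to inhibitory G proteins, which activate PI3 kinase and Rac exchange factors and so drive the cytoskeleton and integrins, until regulators of G protein signalling and arrestins switch the signal off. A naive T cell relies mainly on CCR7 to enter a lymph node, whereas most of the other receptors are known for directing thymocytes, effector and memory cells, or cells of the innate immune system. The 9 receptor genes described here are Ccr2, Ccr4, Ccr6, Ccr9, Cxcr3, Cxcr4, Cxcr5, Cxcr6 and Cx3cr1, taken by gene name from the 34797 gene names on the array. They were measured by 12 probes.

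Cells were naive CD8 T cells from mouse lymph nodes, sorted as CD8b+ and CD44low and not activated. Lck-off samples (4 replicates) came from OT-1het, Rag-/-, Lck-/- mice whose knocked-in Lck had been switched off, per the labels, by 7 days without doxycycline in the diet, and WT samples (3 replicates) came from OT-1het, Rag-/- mice. The OT-1 transgene encodes a receptor for an ovalbumin peptide presented by H-2Kb, Rag deficiency leaves it as the T cells' receptor and removes B cells, and Lck is the kinase that starts signalling from it. The sources used here give neither the promoter driving the inducible Lck, nor the diet of the WT mice, nor the number of animals behind each sample. The samples are described as biological replicates, and if any shared an animal the p-values would measure a smaller, partly technical spread. No Lck-/- group kept on doxycycline was analysed here, so genotype, diet and loss of Lck cannot be told apart.

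RNA of each sample was read on 1 single-colour array, and 42.5% to 48.6% of the probes were well above background. A level here is the log2 intensity minus the log2 of the array's own 75th percentile of intensity, so that 0 is the 75th percentile and 1 unit is a doubling; levels of different probes are not comparable. A difference is the Lck-off mean minus the WT mean, tested with limma over all 18231 genes measured, and it passed where the Benjamini-Hochberg adjusted p was under 0.05. The Lck probe read 8.52, 8.83, 8.60 and 8.55 in Lck-off and 8.99, 9.02 and 8.98 in WT, a difference of -0.37 ± 0.09 (SE; 77.2% of WT; adjusted p = 0.0493), and this call was lost in 6 of 7 fits that left out 1 array (adjusted p up to 0.154). Where Lck is disrupted in Lck-/- mice is not stated, so the probe is a limited check of the labels. Lck-off replicate 2 stood apart in markers of innate cells: 9 of 12 natural killer and innate-like markers were well above background on it, against 3 to 5 on the other 6 arrays, and 14 of 18 monocyte, macrophage and neutrophil markers, against 7 to 12. The neutrophil genes S100a9 and S100a8 read -0.07 and -2.10 on that array and at most -5.70 and -5.61 on the others. In these bulk samples, fewer cells expressing a gene and less RNA per cell cannot be told apart.

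Most of these receptors had a signal in naive CD8 T cells, and 3 did not. Of the 9 genes, 6 (Ccr4, Ccr9, Cxcr3, Cxcr4, Cxcr5 and Cxcr6) were well above background on all 7 arrays. Ccr2 and Cx3cr1 were well above background on 0 arrays and Ccr6 on 1. Among the 6 that were tested, Ccr9 was higher and Cxcr6 lower in Lck-off, and the other 4 did not pass. For comparison, 8.38% of all genes passed, 3.8% as higher and 4.57% as lower. With 6 genes, a share is a description of these receptors alone. The arrays of the groups did not overlap for Ccr9, Cxcr6 and Cxcr3, against 21.8% of all genes. The median difference of the 6 receptors was 0.17, and that of all genes was -0.01.

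**Figure D1:**
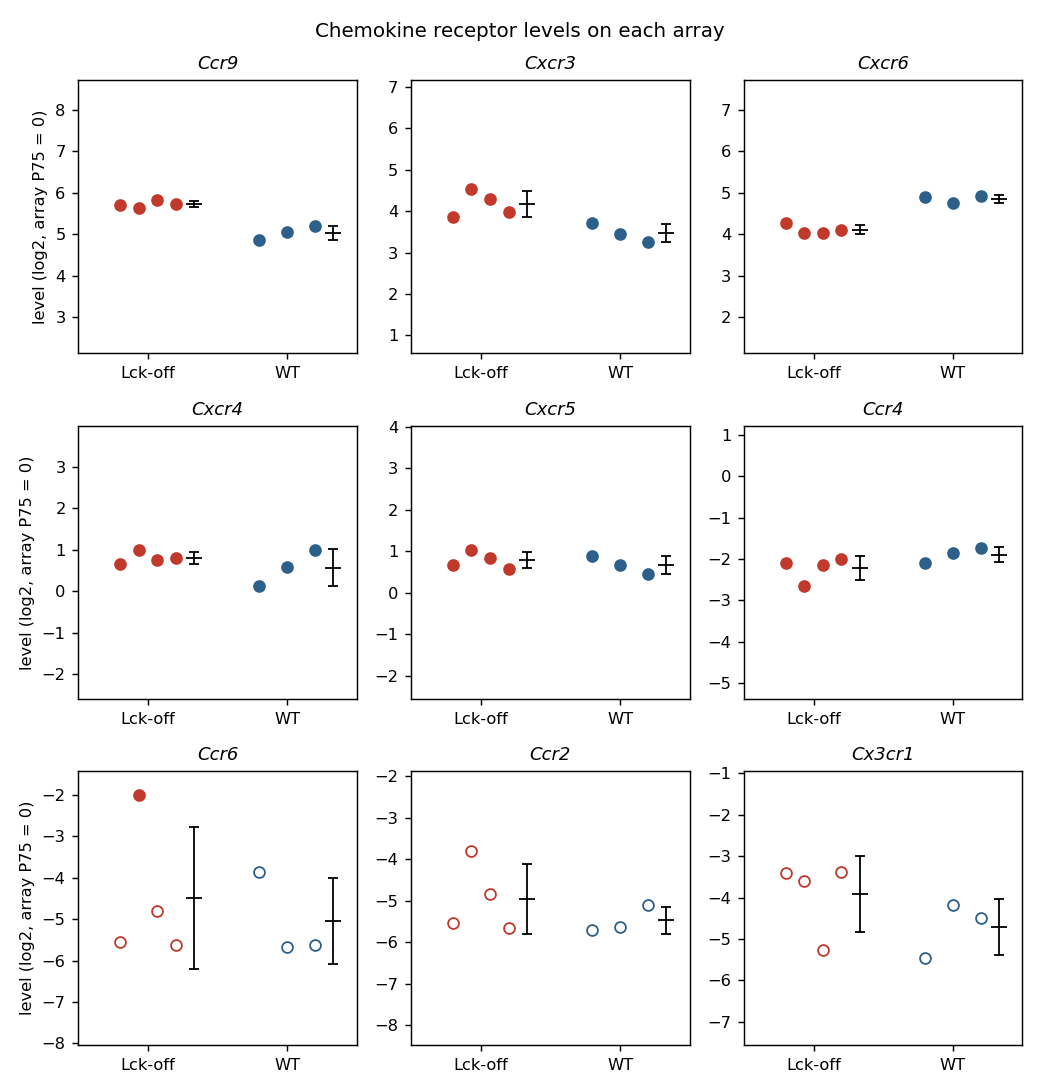
Level of each of the 9 receptor genes on each array (log2 intensity minus the array's 75th percentile; brightest probe per gene), with the 4 Lck-off arrays left of the 3 WT arrays in each panel. Filled points were well above background, open points were not, and bars show the mean ± SD. The Lck-off arrays lie above the WT arrays for Ccr9 (5.72 against 5.03) and Cxcr3 (4.17 against 3.47). They lie below them for Cxcr6 (4.11 against 4.86). Ccr9 and Cxcr6 passed by limma, and Cxcr3 did not (adjusted p = 0.0659).

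Ccr9, Cxcr3 and Cxcr6 are the receptors the results turn on, and their promoters and probe sequences are shown for that reason. The promoter windows are from RefSeq (GRCm38.p6), 250 bases before to 50 bases after the start of the gene, in the direction of transcription. Capitals mark matches, on either strand, to the T-box motif GGTGTG or the RUNX motif TGTGGT, whose reverse complement reads ACCACA; T-box factors (T-bet and Eomes) and RUNX proteins are regulators of CD8 T cell genes. The windows are Ccr9 at chr9:123766961-123767260 (plus strand), Cxcr6 at chr9:123806227-123806526 (plus strand) and Cxcr3 at chrX:101734098-101734397 (minus strand).
Ccr9: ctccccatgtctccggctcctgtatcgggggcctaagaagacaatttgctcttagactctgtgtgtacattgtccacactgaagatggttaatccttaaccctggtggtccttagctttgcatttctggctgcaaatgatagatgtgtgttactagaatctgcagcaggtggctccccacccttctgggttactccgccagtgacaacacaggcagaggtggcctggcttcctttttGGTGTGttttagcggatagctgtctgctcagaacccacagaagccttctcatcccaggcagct
Cxcr6: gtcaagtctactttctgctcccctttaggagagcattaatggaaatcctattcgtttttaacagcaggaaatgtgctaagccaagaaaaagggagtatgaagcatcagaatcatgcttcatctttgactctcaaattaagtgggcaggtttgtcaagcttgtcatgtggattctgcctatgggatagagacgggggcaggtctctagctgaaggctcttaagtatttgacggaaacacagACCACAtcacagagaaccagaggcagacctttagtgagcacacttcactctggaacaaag
Cxcr3: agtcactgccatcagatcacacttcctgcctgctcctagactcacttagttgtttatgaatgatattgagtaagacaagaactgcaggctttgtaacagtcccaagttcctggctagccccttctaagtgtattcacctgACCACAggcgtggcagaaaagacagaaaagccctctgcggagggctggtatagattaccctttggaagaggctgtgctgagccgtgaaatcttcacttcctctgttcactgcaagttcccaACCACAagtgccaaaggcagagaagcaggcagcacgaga

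The Ccr9 window held a T-box match 13 to 8 bases before the start. The Cxcr6 window held a RUNX match 10 to 5 bases before the start, on the strand opposite the gene. The Cxcr3 window held a pair of RUNX matches on that strand, 110 to 105 bases before the start and 12 to 17 bases after it. Windows were on hand for 8 of the 9 receptors (9 windows, Ccr6 having 2; Cxcr5 had none). A T-box match was found for 1 receptor (Ccr9) and in 19% of 32841 promoters, and a RUNX match for 4 receptors (Ccr6, Cx3cr1, Cxcr3 and Cxcr6) and in 16.8%. The interferon-response motif (GAAA, any 2 bases, GAAA) was found for 0 receptors and in 3.44% of promoters, and the STAT motif TTCNNNGAA for 1 receptor (Ccr6) and in 8.3%. The RUNX and T-box motifs can overlap, since both hold TGTG. A match is a run of letters and not a measured binding site.

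The probes are 60 bases long, and only the last 30 bases of each are shown. Capitals mark bases that the 2 Cxcr6 probes share.
Ccr9, brighter probe: catctctttgccagtgacatggcctttcct
Ccr9, dimmer probe: cttaaccactaagctatttctctagttcca
Cxcr6, brighter probe: GGACTCTGGTGGCTTTGCTCatctaaaaaa
Cxcr6, dimmer probe: AAATACAAGAGGACTCTGGTGGCTTTGCTC
Cxcr3: tctcagtatctcaatatttgcccaatttta

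Ccr9 encodes the receptor for CCL25, which is made in thymus and small intestine; the receptor is known on thymocytes, on naive CD8 T cells and on gut-homing T cells. Its brighter probe (mm9, chr9:123690334-123690393, plus strand, from base 2082 of the transcript) read 5.71, 5.64, 5.82 and 5.73 in Lck-off and 4.85, 5.05 and 5.19 in WT. Every Lck-off array was above every WT array. The mean level was 5.72 ± 0.07 in Lck-off (SD, n = 4) and 5.03 ± 0.17 in WT (SD, n = 3). The difference was 0.69 ± 0.10 (SE; 95% interval 0.47 to 0.92), which is 1.62-fold higher in Lck-off (1.38 to 1.89), with an adjusted p of 0.00529 by limma. In the exact permutation test, two-sided, 1 of 35 splits of the arrays was as extreme, which gives p = 0.0286, the smallest this design allows. The call held in each of the 7 fits without 1 array (differences of 0.61 to 0.77), with 0.72 in the fit without Lck-off replicate 2 (adjusted p = 0.0136).

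The arrays lay on 1 slide in 2 rows, row 1 with Lck-off replicates 2 and 3 and WT replicate 3, row 2 with the others. The Ccr9 difference was 0.54 within row 1 and 0.77 within row 2, and 0.68 with the row as a block (adjusted p = 0.0122). Within a row, with 3 or 4 arrays, it did not pass (adjusted p = 0.331 and 0.123). The dimmer Ccr9 probe (chr9:123680935-123680994, plus strand) lay 9399 bases away and is annotated to another transcript record. It read 0.77, 0.38, 0.75 and 0.44 in Lck-off and -0.15, 0.24 and 0.23 in WT, again with no overlap. Its difference of 0.48 ± 0.15 (SE) did not pass over all probes with limma (adjusted p = 0.113), of which 7.33% passed.

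Cxcr6 encodes the receptor for CXCL16 and is known on effector, resident memory and innate-like T cells. Its brighter probe (mm9, chr9:123720719-123720778, plus strand, from base 1739 of the transcript) read 4.27, 4.03, 4.03 and 4.10 in Lck-off and 4.90, 4.75 and 4.91 in WT. All Lck-off arrays were below all WT arrays. The mean level was 4.11 ± 0.11 in Lck-off (SD, n = 4) and 4.86 ± 0.09 in WT (SD, n = 3). The difference was -0.75 ± 0.09 (SE; 95% interval -0.95 to -0.54; adjusted p = 0.00292 by limma), so the Lck-off intensity was 59.6% of WT. The exact permutation test gave its smallest p of 0.0286, from 1 of 35 splits.

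The Cxcr6 call held in each of the 7 fits without 1 array (differences of -0.80 to -0.72), with -0.72 in the fit without Lck-off replicate 2 (adjusted p = 0.0101). The difference was -0.88 within slide row 1, -0.64 within row 2 and -0.74 with the row as a block (adjusted p = 0.0084); within a row it did not pass (adjusted p = 0.157 and 0.149). The other Cxcr6 probe starts 10 bases upstream and shares 50 of its 60 bases with the first, so it is no separate measurement of the transcript. It read 3.37, 3.22, 3.31 and 3.26 in Lck-off and 4.17, 3.83 and 4.09 in WT, a difference of -0.74 ± 0.10 (SE; adjusted p over all probes = 0.00554).

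**Figure D2:**
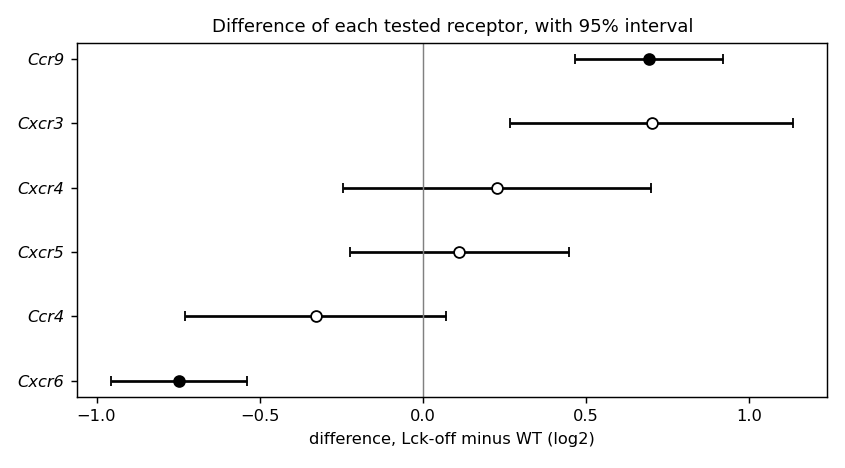
Difference in level, Lck-off minus WT (log2), of the 6 receptor genes measured, with the 95% interval from limma; filled points passed an adjusted p of 0.05. Ccr9 (0.69) and Cxcr6 (-0.75) passed on opposite sides of 0, Cxcr3 (0.70) had a wider interval, and the intervals of Cxcr4, Cxcr5 and Ccr4 crossed 0.

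Cxcr3 encodes the receptor for the interferon-induced chemokines CXCL9, CXCL10 and CXCL11 and is known on activated and memory CD8 T cells. Its probe (mm9, chrX:98926920-98926979, minus strand, from base 1503 of the transcript) read 3.86, 4.55, 4.28 and 3.99 in Lck-off and 3.70, 3.44 and 3.26 in WT. The groups did not overlap, and Lck-off replicate 2 was the highest array. The mean level was 4.17 ± 0.31 in Lck-off (SD, n = 4) and 3.47 ± 0.22 in WT (SD, n = 3).

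The Cxcr3 difference of 0.70 ± 0.18 (SE; 95% interval 0.27 to 1.14; 1.63-fold) was as large as that of Ccr9 but did not pass, with an adjusted p of 0.0659 by limma and an unadjusted p of 0.00636. In the exact permutation test 2 of 35 splits were as extreme (p = 0.0571). The difference was 1.16 within row 1, which holds Lck-off replicate 2 and a single WT array, and 0.35 within row 2; neither passed (adjusted p = 0.147 and 0.362), and whether the rows differ was not tested. Without Lck-off replicate 2, the array with more innate and neutrophil markers, whose part was not tested, the difference was 0.58 (adjusted p = 0.100), and without Lck-off replicate 1 it was 0.80 and passed (adjusted p = 0.0476). It also passed with the normexp background correction (0.70, adjusted p = 0.0172) and on the authors' deposited table of log2 values (0.69, adjusted p = 0.0240).

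Cxcr4, Cxcr5 and Ccr4 were measured on every array and did not pass. Cxcr4, the receptor for CXCL12 that serves retention in bone marrow and thymic migration, read 0.64, 0.99, 0.74 and 0.79 in Lck-off and 0.11, 0.58 and 1.00 in WT (chr1:130485079-130485138, minus strand). The WT arrays spanned a wider range than the Lck-off arrays and enclosed them. The difference of 0.23 ± 0.20 (SE; 95% interval -0.24 to 0.70; adjusted p = 0.606) was -0.13 within row 1 and 0.37 within row 2. Cxcr5, the CXCL13 receptor that takes cells into B cell follicles, read 0.67, 1.02, 0.85 and 0.58 in Lck-off and 0.88, 0.68 and 0.44 in WT (chr9:44320071-44320130, minus strand). The arrays of the groups were interleaved, with a difference of 0.11 ± 0.14 (SE; 95% interval -0.22 to 0.45; adjusted p = 0.743) that was 0.49 within row 1 and -0.15 within row 2.

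Ccr4, the receptor for CCL17 and CCL22 known on helper and regulatory T cells, lay far below the 75th percentile of intensity. Its levels were -2.11, -2.64, -2.14 and -1.99 in Lck-off and -2.09, -1.86 and -1.73 in WT (chr9:114399467-114399526, minus strand). The difference was -0.33 ± 0.17 (SE; 95% interval -0.73 to 0.07; adjusted p = 0.333), and it was -0.66 within row 1 and -0.08 within row 2. With 1 array left out it lay between -0.43 and -0.19, the value nearest 0 being that without Lck-off replicate 2, and it was -0.21 with normexp and -0.16 on the authors' deposited table. For these 3 genes the intervals leave room for changes in either direction, and the exact permutation p-values were 0.4 for Cxcr4, 0.543 for Cxcr5 and 0.143 for Ccr4.

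The receptors below background are those known from monocytes, B cells and innate-like cells. Ccr2, the CCL2 receptor of inflammatory monocytes, had intensities of 4.79, 15.2, 8.51 and 4.58 in Lck-off and 3.97, 4.26 and 6.88 in WT (mm9, chr9:124022948-124023007, plus strand). The faintest probe well above background had 13.9 to 21.4 depending on the array, which is no detection limit. Ccr2 at 15.2 on Lck-off replicate 2 exceeded that array's 14.3 without the call. Cx3cr1 at 22.2 on Lck-off replicate 4 likewise exceeded 16.5. Cx3cr1, the fractalkine receptor of monocytes and cytotoxic effector cells, had 2 probes on chromosome 9, and neither was well above background on any array; the brighter one spanned 6.26 to 22.2 in Lck-off and 4.72 to 11.6 in WT (chr9:119957811-119957870, minus strand). Ccr6, the CCL20 receptor of B cells and IL-17-producing T cells, had intensities of 4.69, 53.1, 8.72 and 4.70 in Lck-off and 14.4, 4.10 and 4.77 in WT (chr17:8449933-8449992, plus strand). Ccr6 was well above background on Lck-off replicate 2 alone. Of 34797 gene names, 404 were so on that array alone, against 225 to 541 on each other array alone. That array stood apart in innate and neutrophil markers, and their part in the Ccr6 value was not tested. These 3 genes were left out of the test because they were well above background on fewer than 3 arrays, and none passed when all gene names were tested (adjusted p = 0.864, 0.768 and 0.977 for Ccr2, Cx3cr1 and Ccr6).

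Ccr7, which is no member of the group, gives a scale for these changes. Its level was 7.79 ± 0.06 in Lck-off (SD, n = 4) and 7.72 ± 0.08 in WT (SD, n = 3), a difference of 0.07 (adjusted p = 0.661). Of the 15 remaining receptor genes listed, Ccr7 among them, 2 were measured. The other was Ccrl2, an atypical receptor that binds chemerin and does not signal through G proteins. Ccrl2 read -2.38, -2.14, -2.11 and -1.83 in Lck-off and -4.36, -3.34 and -3.87 in WT. It was well above background on all 4 Lck-off arrays and on no WT array, so it entered the fit only through the Lck-off arrays and its call carries no weight here. On the intensities used for these levels, Ccrl2 was higher in Lck-off by at least 3.02-fold. That bound was set by the faintest signal called above background in each WT array, or by the Ccrl2 signal where that was higher. With the normexp background correction, whose offset shrinks differences of dim probes, the difference was 0.42. On the authors' deposited table of log2 values it was 0.46. The 3.02-fold value does not carry over to the normexp or deposited values, so no minimum fold is given.

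Ccr9 and Cxcr6 are neighbours on chromosome 9, with their brighter probes 30375 bases apart, and they moved in opposite directions. Within 500 kb on either side (mm9, chr9:123180935-124220778) the array held 18 probes for 15 gene names, of which 8 were measured. The region was drawn around Ccr9 and Cxcr6, so their passing in it was given beforehand. The others measured did not pass, where 8.38% of all genes passed. Fyco1, an autophagosome transport adaptor whose probe lies between them, differed by 0.08 (adjusted p = 0.752). Lztfl1, a regulator of ciliary protein trafficking, differed by 0.15 (adjusted p = 0.352). Of the other receptor genes in the region, Ccr1, Ccr1l1, Ccr2, Ccr3 and Xcr1 were not measured above background on enough arrays.

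**Figure D3:**
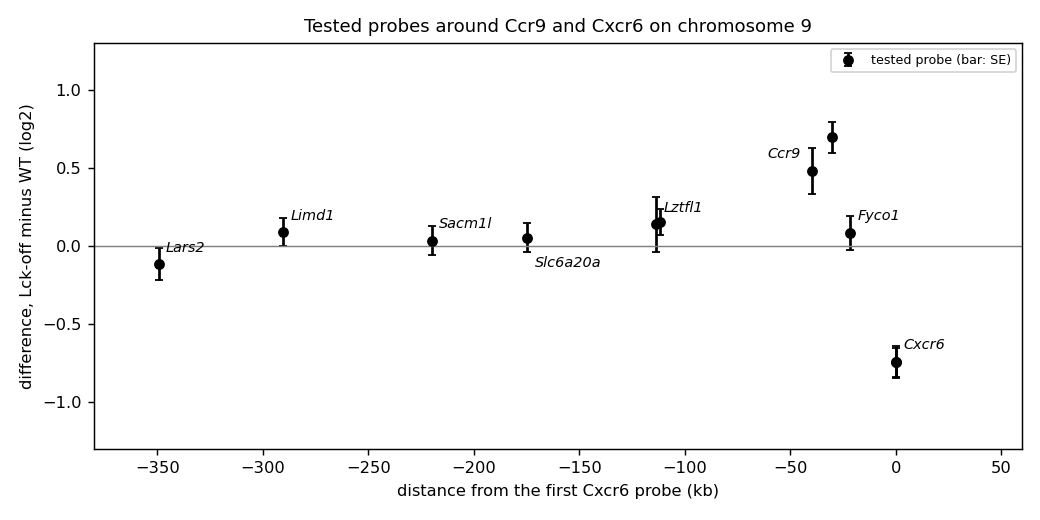
Difference in level, Lck-off minus WT (log2, bars ± SE), of the tested probes around Ccr9 and Cxcr6, against distance in kb from the first Cxcr6 probe. Ccr9 lies above 0 and Cxcr6 below it, while Fyco1 (0.08) and Lztfl1 (0.15) lie close to 0.

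Among the chemokine ligands Cxcl10 was higher and Cxcl16 lower in Lck-off, and both bind receptors described above. Of 27 ligand genes listed, 25 were on the array and 11 were measured; 1 was higher, 1 was lower and 9 did not pass, with a median difference of 0.04. Among those measured 18.2% passed, against 8.38% of all genes. Ccl8, Ccl3 and Ccl4, inflammatory chemokines named after their values were seen, had differences of 1.55, 1.29 and 1.25 that did not pass (adjusted p = 0.239, 0.528 and 0.503), and Ccl3 was well above background on no WT array. Cxcl10, a ligand of CXCR3, read 1.36, 0.74, 1.38 and 2.12 in Lck-off and -2.96, -0.99 and -1.27 in WT. All Lck-off arrays were above all WT arrays, and Cxcl10 was 8.81-fold higher in Lck-off (difference 3.14 ± 0.51, SE; adjusted p = 0.0107). The other CXCR3 ligands, named here as such and not by rule, did not pass, with differences of -0.32 for Cxcl9 (adjusted p = 0.676) and -0.01 for Cxcl11 (adjusted p = 0.986). Cxcl9 was well above background on only 2 Lck-off arrays and 1 WT array, so its difference is limited by signal over background. The Cxcl11 probe had a mean level of 9.59 in both groups, and whether it reads Cxcl11 alone was not tested.

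Cxcl16, the ligand of CXCR6, read -3.40, -2.53, -2.87 and -3.13 in Lck-off and -1.09, -1.05 and -1.34 in WT. It was well above background on 3 of 4 Lck-off arrays and on all WT arrays, and it was lower in Lck-off by limma (difference -1.82 ± 0.20, SE; adjusted p = 0.0022), with the level on Lck-off replicate 1 being only a bound. Both Cxcl16 and its receptor were thus lower in Lck-off, while Cxcl10 was higher. With normexp the difference was 2.17 for Cxcl10 and -0.84 for Cxcl16, and both passed. Ccl25, the ligand of CCR9, read 0.00, -0.10, -0.24 and -0.03 in Lck-off and 0.16, 0.18 and 0.28 in WT. Its difference of -0.30 ± 0.08 (SE) did not pass (adjusted p = 0.0803), although the groups did not overlap. The CXCR4, CXCR5, CCR6, CX3CR1 and CCR2 ligands Cxcl12, Cxcl13, Ccl20, Cx3cl1 and Ccl2 did not reach the well-above-background call on any array.

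**Figure D4:**
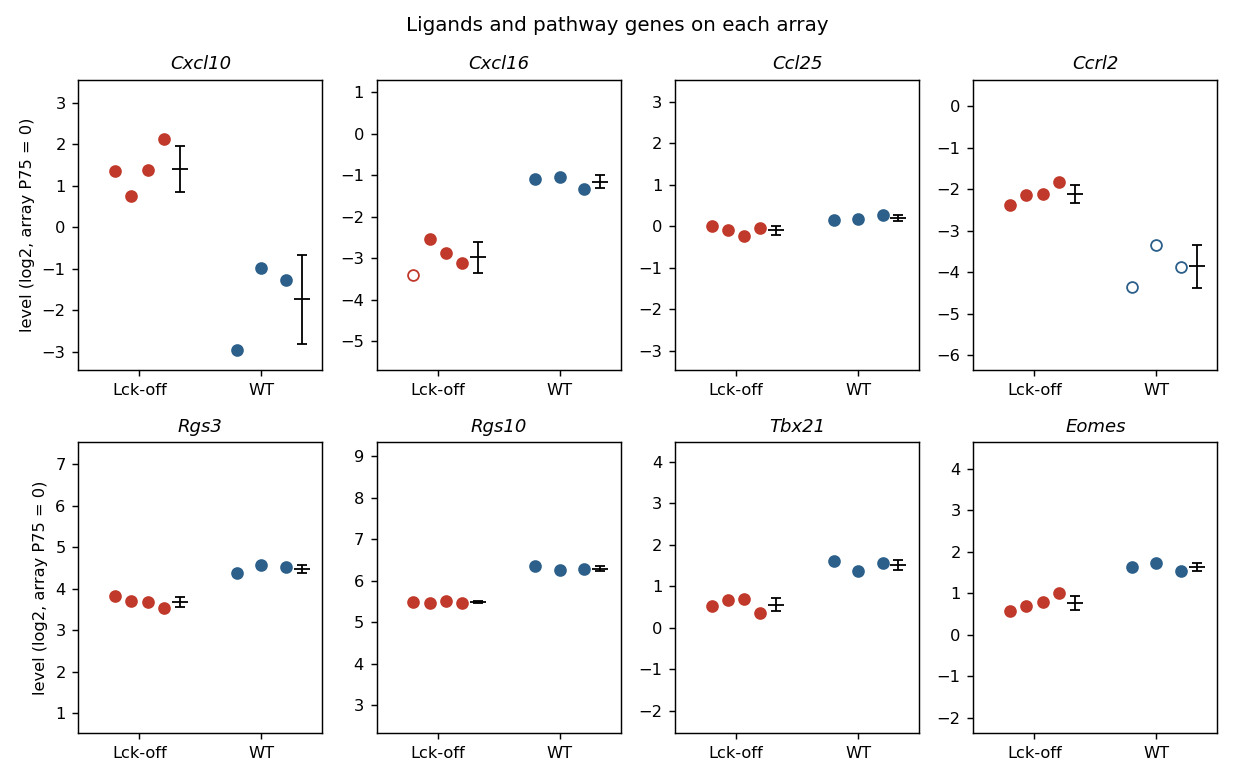
Level on each array (log2 intensity minus the array's 75th percentile) of ligands, regulators and transcription factors related to the receptors, with Lck-off left of WT; filled points were well above background, open points were not, and bars show the mean ± SD. Cxcl10 was higher in Lck-off, and Cxcl16, Rgs3, Rgs10, Tbx21 and Eomes were lower. Ccl25 did not pass. Ccrl2 was well above background on the Lck-off arrays alone, so its call carries no weight.

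Downstream of the receptors, 12.9% of the measured genes of the shared signalling machinery passed, against 8.38% of all genes. Of 33 genes for G proteins and migration, 31 were measured; 2 were higher, 2 were lower and 27 did not pass, and the median difference was 0.01. Those that passed included Pik3r5, an adaptor of PI3 kinase gamma (0.51, adjusted p = 0.0492), the Rac activator subunit Elmo1 (-0.52, adjusted p = 0.0406) and the integrin-regulating GTPase Rap1b (-0.42, adjusted p = 0.0277). Each of these 3 lost its call in 6 or 7 of the 7 fits without 1 array, with adjusted p-values up to 0.145, and Elmo1 differed by -0.28 with the normexp background correction.

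The genes that switch receptor signals off held a pair of well-separated falls. Of 15 genes for regulators of G protein signalling, receptor kinases and arrestins, 13 were measured; 0 were higher, 2 were lower and 11 did not pass, with a median of -0.12. The share that passed was 15.4%, against 8.38% of all genes. Rgs10 read 5.50, 5.47, 5.52 and 5.46 in Lck-off and 6.35, 6.26 and 6.27 in WT, and fell by 0.81 ± 0.06 on the log2 scale (SE; adjusted p = 0.000694). Rgs3 read 3.83, 3.72, 3.68 and 3.54 in Lck-off and 4.37, 4.57 and 4.52 in WT, and fell by 0.80 ± 0.09 on that scale (SE; adjusted p = 0.00265). Both speed up the shut-off of G proteins. The replicates of each group lay within a narrow range for both, and neither call was lost in a fit without 1 array.

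Transcription factors reported to act on these receptor genes included the T-box factors T-bet and Eomes, which both fell in Lck-off. Of 13 listed, 12 were measured; 0 were higher, 2 were lower and 10 did not pass, with a median of -0.11. Of the 12 measured, 16.7% passed, against 8.38% of all genes. Tbx21 (T-bet), reported to activate Cxcr3 in effector T cells, read 0.51, 0.67, 0.68 and 0.36 in Lck-off and 1.60, 1.36 and 1.57 in WT, a difference of -0.95 ± 0.11 (SE; adjusted p = 0.0025). Eomes, the related T-box factor of memory CD8 T cells, read 0.59, 0.70, 0.78 and 1.01 in Lck-off and 1.63, 1.72 and 1.54 in WT, a difference of -0.86 ± 0.11 (SE; adjusted p = 0.00407). All Lck-off arrays were below all WT arrays for both genes, and both calls held in every fit without 1 array.

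The genes whose levels followed Ccr9 most closely over the 7 arrays, by the root mean square difference after each gene was centred on its own mean, were Dtx3l (0.0604), Akr1c12 (0.0685) and Bmp2k (0.0712). For Cxcr6 they were AA388235 (0.0506), Kcnmb4 (0.0555) and Scrn2 (0.0623). These were picked from 11251 genes for their likeness, so their own differences carry no test here.

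Markers of other cells that a sort could hold were read beside these results, with the receptors themselves left out. The summed linear level of 13 CD8 T cell markers, relative to the 75th percentile, was 2665 to 2865 in Lck-off and 2768 to 2892 in WT. All 13 were measured; Lck, which is in this list, was lower and 12 did not pass. Without Thy1 and Lck the other 11 summed to 1623 to 1700 in Lck-off and 1604 to 1688 in WT. The sum for 18 monocyte, macrophage and neutrophil markers was 295 to 343 in Lck-off and 258 to 309 in WT. Of 10 measured, Ctss and C1qb rose, 8 did not pass and the median difference was 0.64. All 10 had a difference above 0, and 6 had an unadjusted p under 0.05 by limma. Of all 18231 genes, 48.3% had a difference above 0, 3918 had such an unadjusted p and 8.38% passed. These values are the background for all marker counts given here and below. Fcgr3 and Cybb were well above background on no array. Csf3r, Ctss and Itgam made up 97.2% to 98.4% of that sum, and the other 15 markers summed to 6.53 to 9.60 in Lck-off and 4.46 to 7.30 in WT. The sum for 15 dendritic cell markers was 256 to 318 in Lck-off and 246 to 268 in WT. Of 10 measured, Tcf4 rose, the median difference was 0.77, and Clec9a and Cd209a were at background throughout. A difference above 0 was found for 9 of the 10, and 3 had an unadjusted p under 0.05 by limma. Siglech alone made up 95.05% to 98.7% of that sum, and the other 14 markers summed to 4.86 to 15.7 in Lck-off, the highest being replicate 2, and 3.18 to 6.47 in WT. The part of these shifts in the differences of Ccr9, Cxcr3, Cxcl10 and Ccrl2 was not tested.

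For 11 B cell markers the sum was 12.6 to 15.5 in Lck-off and 12.9 to 14.9 in WT; 4 were measured, 0 passed with limma (1, Cd22, at an unadjusted p under 0.05), and Ms4a1, Pax5, Blk, Ebf1 and Igkc were well above background on no array; Cd79b made up 90.8% to 92.9% of the sum. For 12 natural killer and innate-like markers it was 43.1 to 48.1 in Lck-off and 45.0 to 47.0 in WT, and 0 of the 4 measured passed (1, Prf1, at an unadjusted p under 0.05). Klrd1 and Prf1, which CD8 T cells also express, made up 94.1% to 98.8% of that sum, and the other 10 markers summed to 2.67 on Lck-off replicate 2 and at most 0.891 on the others. For 8 CD4 and regulatory T cell markers the sum was 18.4 to 21.8 in Lck-off and 17.0 to 18.0 in WT; Zbtb7b and Cd4 made up 93.3% to 95.3% of it. Of 6 measured, Ikzf2 was lower, with 2 of 4 Lck-off arrays well above background. Il2ra was well above background on all Lck-off arrays and no WT array, so it entered the fit only through Lck-off. Its Lck-off mean was 7.14-fold a floor value set as for Ccrl2, on the same intensities, which is no minimum fold either. The Il2ra call carries no weight here. For 10 stromal markers the sum was 2.14 to 2.98 in Lck-off and 2.00 to 2.22 in WT, and 0 of the 4 measured passed (1, Ccl19, at an unadjusted p under 0.05).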

How the data were processed

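Total RNA (RIN over 8, 50 ng) of 7 samples was labelled with Cy3 and hybridised to Agilent arrays of design 028005. Feature Extraction 10.7.3.1 produced the deposited intensity values, per the file headers, by subtracting background within each array without normalization between arrays, with probe positions on mm9; flags for spot type, spots well above background and non-uniform spots come from the same deposited files. The authors' deposited table holds log2 values (a scale found from the values); the sources used here do not give its normalization, its column medians were 6.38 to 6.39, its values correlated at 0.986 to 0.991 with the log2 intensities, and the submitters' processing notes name limma.

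Levels were log2 processed intensity minus each array's 75th percentile over non-control spots. Non-uniform spots were dropped, repeated spots of a probe averaged, and 25578 of 55681 probes, well above background on at least 3 arrays, were kept. Each gene name took its brightest kept probe, giving 18231 genes; 68.8% matched a current symbol in a RefSeq table (GRCm38.p6). The 75th percentile of intensity was 212 to 243 in Lck-off and 208 to 235 in WT, and the number of arrays limits precision. Groups were tested with limma 3.58.1 (under R 4.3.3, with the data.table package, version 1.17.8), two-sided, with Benjamini-Hochberg adjustment over all genes; the fit was tested on simulated data. Named were all 9 receptors, every listed gene with an adjusted p under 0.05, and the 3 genes most like each receptor that passed; 3 further genes are not reported here by name. Other ligands and neighbours were named after their values were seen. The receptors and lists were chosen with earlier results of these data known. Alternatives covered background correction (normexp, offset 50), scaling, filters, probe choice, moderation, blocks and leaving out each array.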

Additional observations from a re-analysis of the deposited data

How the results depend on the processing

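Ccr9 and Cxcr6 kept their direction under all 21 alternatives and passed under 18 each. They did not pass with the replicate number as a block (replicates 1 to 3; 0.69, adjusted p = 0.0654, for Ccr9 and -0.74, adjusted p = 0.0561, for Cxcr6, each on 6 arrays), nor within slide row 1 (0.54 and -0.88) or row 2 (0.77 and -0.64), fits with fewer arrays. Deviations of same-numbered arrays from their group means correlated at 0.106, 0.049 and -0.008 across genes, and those of other pairs at -0.174 to 0.138. With means of so few arrays, these values cannot tell whether the numbers pair the samples. Cxcr3 passed with normexp (0.70), the authors' deposited table (0.69), probes above background on all 7 arrays (0.70), trended and robust moderation (0.70), array weights (0.68) and without Lck-off replicate 1; its leave-one-out range was 0.58 to 0.82. The second Ccr9 probe passed with the deposited table (0.40, adjusted p = 0.0495) and with trended and robust moderation (0.48, adjusted p = 0.0436). Cxcr4 reversed within row 1 (-0.13; leave-one-out 0.00 to 0.45), and Cxcr5 reversed within row 2 (-0.15) and without WT replicate 3 (leave-one-out -8.1e-05 to 0.22); the cause was not tested. Lck kept its call in 9 of 21 alternatives. Against 1527 genes passing in all, 717 passed with no filter on dim probes, 2580 with array weights, 374 with the replicate block, 105 within row 1 and 0 within row 2 (limma; 2711 at an unadjusted p under 0.05), and 960 to 1405 with 1 array left out. Of the receptors, 2 passed in the reported fit, 0 with the replicate block, 0 within row 1 and 0 within row 2, and 2 to 3 with 1 array left out. Of the genes in the 5 other pathway lists 11 passed (Ccrl2 among them), against 15 with normexp, 14 with the deposited table, 16 with trended and robust moderation, 15 with array weights, 7 with no filter, 4 with the replicate block, 0 within either row, and 7 to 10 with 1 array left out. The count of all genes passing also moved, to 1686 with normexp, 1731 with the deposited table and 1984 with trended and robust moderation. The list counts are thus no result about these lists. Ccr2, Ccr6 and Cx3cr1 were limited by signal over background.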
